A study of Mus musculus with 10 samples.

Results

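The transcripts described here encode the subunits of the 5 enzyme complexes of oxidative phosphorylation, measured in LSK cells from the bone marrow of control and LysM-KI mice. A gene was counted as a subunit gene when the symbol of its probe named a subunit of complex I (Nduf), complex II (Sdh), complex III (Uqcr and Cyc1), complex IV (Cox4 to Cox8) or complex V (Atp5). This gave 79 of the 19057 genes that had a probe with 1 symbol, 35 for complex I, 4 for complex II, 8 for complex III, 16 for complex IV and 16 for complex V. The brightest of the probes of a gene over the 10 arrays stood for that gene, and 74 of the 79 were measured, meaning that this probe had a detection p under 0.05 on at least 5 arrays. Of these, 67 were detected on all 10 arrays. Genes that carry a subunit-like name only as an older synonym (Ndufaf2, Dmac2l, Dmac2 and Emc8) were not counted, and subunits whose symbols were not matched are not analysed here.

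Oxidative phosphorylation makes ATP in the inner mitochondrial membrane. Complexes I and II take electrons from NADH and succinate and pass them to ubiquinone, complex III moves them on to cytochrome c, and complex IV hands them to oxygen. Complexes I, III and IV pump protons, and complex V, the ATP synthase, uses the returning protons to make ATP. Haematopoietic stem cells are known for a low rate of respiration at rest and a strong dependence on mitochondrial function once they divide and differentiate. The genes counted here lie in the nucleus, and a few further subunits of complexes I, III, IV and V are encoded by mitochondrial DNA.

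LSK cells lack lineage markers, carry Sca1 and cKit, and include the haematopoietic stem cells and the multipotent progenitors. The 2 groups were 5 control and 5 LysM-KI mice, with 1 array per mouse. Every mouse, controls included, had the strain label LysMCre, a name used for a line in which Cre recombinase is driven from the lysozyme gene Lyz2 of myeloid cells, and every mouse was 9 to 16 weeks old. The knocked-in allele, the Cre status of the control mice and the sex of the mice are not given in the labels. Each array detected between 15234 (control 4) and 18801 (LysM-KI 4) of 45281 probes, and 71 to 75 of the 79 subunit genes. Control 4 and LysM-KI 4 also had a high log2 level of the female-specific transcript Xist (12.26 and 11.92, against at most 6.68 on the other arrays). Values without both are given beside some of the results. Of the fixed markers of the LSK gate and of stem or progenitor cells, 7 of the 8 on the array were measured. The mean log2 level over the 8 was 7.72 to 8.46 on control and 8.08 to 8.58 on LysM-KI arrays, and Kit was detected on every array. Of the markers of other cell types on the array, 0 of 3 were measured for monocytes and macrophages, 3 of 6 for neutrophils, 2 of 5 for erythroid cells, 2 of 3 for B cells, 2 of 4 for T and NK cells and 2 of 5 for stroma and endothelium. The mean log2 level over the neutrophil markers was 4.98 to 8.07 on control and 5.16 to 6.62 on LysM-KI arrays, and over the erythroid markers 5.12 to 8.02 and 5.02 to 6.65. That of the B cell markers was 5.77 to 7.31 and 6.48 to 7.69. The stroma and endothelium markers averaged 5.24 to 5.76 and 4.85 to 5.06, lower on every LysM-KI array. Of these, Pdgfrb (LysM-KI minus control -1.04) and Sparc (-1.40) were measured, each detected on 6 arrays and each overlapping between the groups. Cdh5, Col1a1 and Cxcl12 were not measured, with means of 4.89, 4.60 and 5.11 on control and 4.95, 4.63 and 5.05 on LysM-KI arrays. The part of such cells in the subunit levels was not tested. In sorted populations such as these, fewer cells of a type and less RNA per cell cannot be told apart.

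Promoter windows from RefSeq (GRCm38.p6), running from 250 bases before to 50 bases after a gene's start, were at hand for 64 of the 79 genes. They were searched on either strand for 4 strings of 8 letters that stand for factors known from work on respiratory genes. CGCATGCG, a core of the NRF1 motif, occurred in 9 of the 64 (14.1%) and in 2.07% of the 27025 genes with a window. AAGATGGC, a YY1-type string that holds the letters ATG of a start codon, occurred in 10 (15.6%) and in 3.19% of all genes. CCGGAAGT, an ETS string bound by factors such as GABP, occurred in 4 (6.25%) against 4.31%, and CAAGGTCA, bound by estrogen-related receptors, in 3 (4.69%) against 1.76%. No string contains another, Atp5j alone held the first 2 together, and the windows were not matched for base composition. Examples follow, 5′ to 3′ on the strand of the gene, with the string in capitals. Ndufs7 and Ndufa3 are shown because they had the smallest p of complex I with opposite signs, and Cox6a1 because it is the widely expressed counterpart of Cox6a2. The windows lie at chr10:80249199-80249498 (plus strand), chr7:3617123-3617422 (plus strand) and chr5:115348909-115349208 (minus strand), and the string starts at base 275, 273 and 90 of its window.
Ndufs7: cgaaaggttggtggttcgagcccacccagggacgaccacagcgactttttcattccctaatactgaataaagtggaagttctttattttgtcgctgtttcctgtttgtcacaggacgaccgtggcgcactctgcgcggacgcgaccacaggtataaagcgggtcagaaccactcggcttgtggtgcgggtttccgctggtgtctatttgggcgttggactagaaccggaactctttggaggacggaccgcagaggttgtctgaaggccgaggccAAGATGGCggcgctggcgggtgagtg
Ndufa3: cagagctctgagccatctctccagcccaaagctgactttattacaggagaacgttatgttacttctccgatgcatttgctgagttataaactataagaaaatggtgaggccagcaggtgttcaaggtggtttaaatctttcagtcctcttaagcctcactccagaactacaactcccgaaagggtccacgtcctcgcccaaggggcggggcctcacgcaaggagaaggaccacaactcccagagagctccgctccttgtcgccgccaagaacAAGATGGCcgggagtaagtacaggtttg
Cox6a1: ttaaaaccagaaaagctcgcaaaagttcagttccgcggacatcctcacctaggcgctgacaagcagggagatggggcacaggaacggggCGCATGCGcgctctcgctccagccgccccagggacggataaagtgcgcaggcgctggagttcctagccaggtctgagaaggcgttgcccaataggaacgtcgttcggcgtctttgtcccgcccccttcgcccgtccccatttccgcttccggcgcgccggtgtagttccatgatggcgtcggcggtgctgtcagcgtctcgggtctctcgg
Both Ndufs7 and Ndufa3 thus carry the YY1-type string just after the annotated start, and Cox6a1 carries the NRF1 core further upstream. A string in a window describes the sequence and does not show that a factor binds there.

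Differences between the groups were small for most subunit genes. They are given as LysM-KI minus control of the normalized log2 intensity, and 67 of the 74 measured genes lay within 0.5 of 0. The median difference was 0.09, with 57 genes above 0 and 17 below, beside a median of 0.05 and 55.5% above 0 over all 8841 measured genes. With 77.0% of the subunit genes above 0, the split depended on the scaling, since with cyclic loess normalization 60.8% (45 of 74) lay above 0 and 47.2% of all probes did. The split depended on single arrays as well, since 58.1% lay above 0 without control 5, beside 52.9% of all probes. No subunit gene passed limma's adjusted threshold of 0.05, as none of the 17245 measured probes did (0%). The adjusted p was 0.392 at its smallest over all probes and lay between 0.881 and 1.000 over the subunit genes. Before adjustment, 922 probes had a limma p under 0.05, and among them were 2 subunit genes, 1 higher (Cox6a2, of complex IV) and 1 lower (Ndufs7, of complex I). The shares over all probes were 3.40% higher and 1.94% lower, so 1 of 74 in each direction is no more than the background. The 5 LysM-KI arrays lay wholly above the 5 control arrays for 0.574% of all probes and wholly below them for 0.336%, and for none of the subunit genes in either direction.

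**Figure D1:**
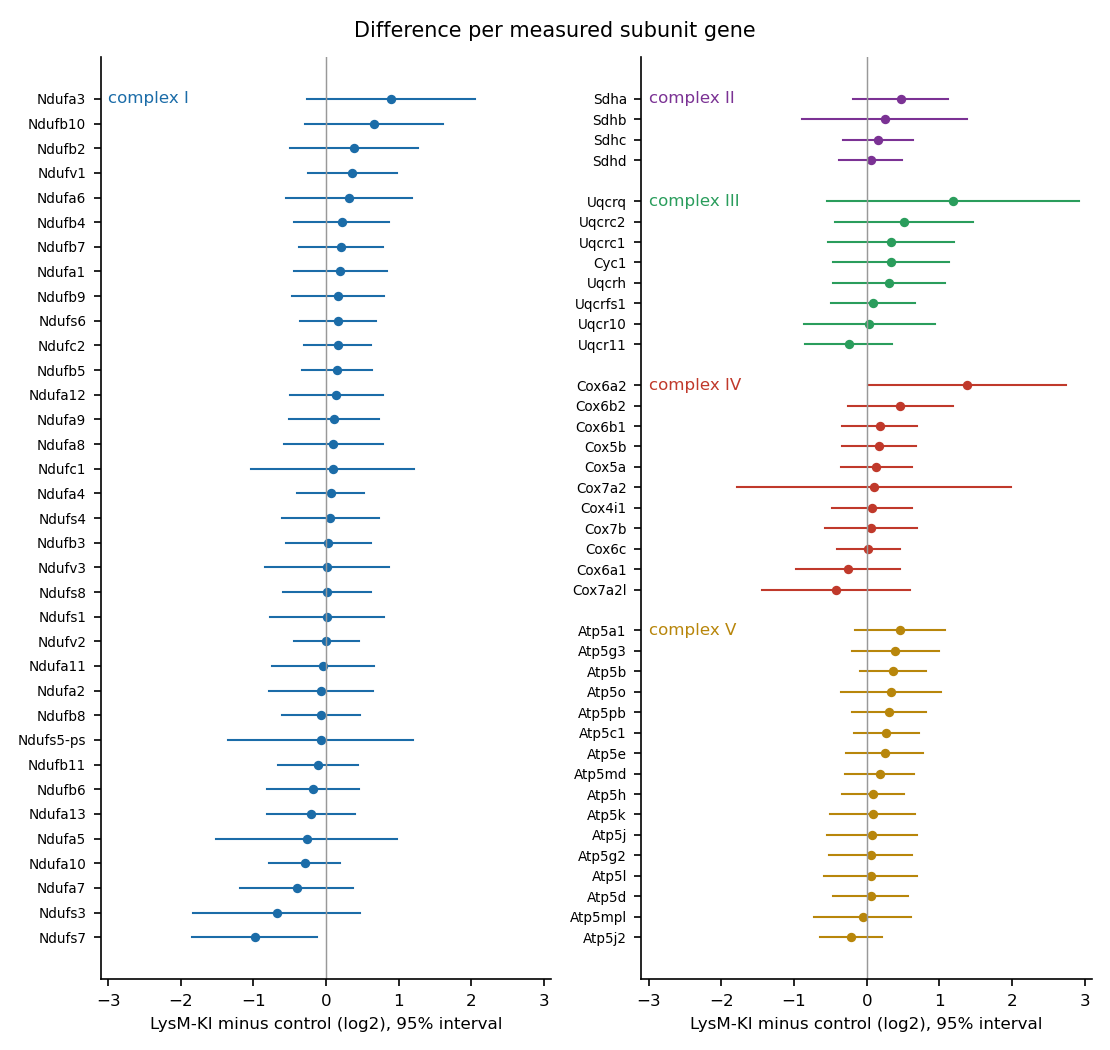
Difference in normalized log2 intensity, LysM-KI minus control (x axis), for each of the 74 measured subunit genes (rows, grouped by complex). Points are limma estimates and lines their 95% intervals, and the interval leaves out 0 for Cox6a2 and Ndufs7 alone, before adjustment for the number of probes.

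The intervals show the precision of a single difference, before adjustment for the number of probes. The 95% interval of the difference reached 0.63 to either side at the median subunit gene. It lay within 1 of 0, a change of less than 2-fold, for 51 of the 74 genes. For the other 23 a change of 2-fold or more in at least 1 direction lay within it. The brighter 37 genes had a median standard error of 0.24 and the dimmer 37 one of 0.35.

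Complex I, the NADH dehydrogenase, had 35 measured genes, with a median difference of 0.06 and 23 above 0. That median was -0.01 with cyclic loess and -0.03 without control 5, and cyclic loess moved the median of all probes from 0.03 to -0.03 as well. Ndufs7 carries the last iron-sulfur cluster before ubiquinone. Its log2 levels were 7.69, 8.28, 8.10, 9.82 and 8.58 on control arrays 1 to 5 and 7.33, 7.69, 7.82, 7.86 and 6.85 on LysM-KI arrays 1 to 5. Control 4 stood well above the rest, all 5 LysM-KI arrays lay below the control mean, and the groups overlapped because control 1 was at the level of the LysM-KI arrays. The difference was -0.98 (SE 0.39, 95% interval -1.85 to -0.12), 0.506 of the control level, with a limma adjusted p of 0.881. Without control 4 it was -0.65. Ndufs3, a core subunit of the same ubiquinone-reducing module, had levels of 7.32, 7.32, 8.48, 6.05 and 5.63 on control and 5.86, 5.73, 7.07, 6.76 and 5.97 on LysM-KI arrays, which overlapped widely. Its difference was -0.68 (SE 0.52), and it was -0.30 without control 3 and -1.03 without control 4 and LysM-KI 4.

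The other measured core subunits of complex I with nuclear genes, Ndufs8 of the ubiquinone-reducing module among them, showed smaller differences. Ndufv1, which binds NADH and the flavin, was at 9.75, 10.28, 9.58, 10.02 and 8.88 on control and 9.99, 10.06, 9.85, 10.18 and 10.23 on LysM-KI arrays, a difference of 0.36 (SE 0.28) that was 0.16 without control 5. The LysM-KI arrays lay close together and above the control mean, inside the wider range of the controls. The iron-sulfur subunits Ndufs1, Ndufs8 and Ndufv2 had levels of 6.27 to 7.89, 8.59 to 9.74 and 11.11 to 11.59 on control arrays and of 6.19 to 7.46, 9.00 to 9.62 and 11.25 to 11.62 on LysM-KI arrays. In each of the 3 the LysM-KI arrays lay within or at the edges of the control range.

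Among the accessory subunits of complex I, which surround the core and are needed to assemble it, Ndufa3 and Ndufb10 of the membrane arm had the most positive differences. Ndufa3 was at 8.15, 9.51, 8.78, 6.44 and 9.31 on control and 8.87, 9.75, 9.29, 9.06 and 9.67 on LysM-KI arrays. Ndufb10 was at 10.59, 10.95, 9.97, 8.37 and 10.29 on control and 10.59, 10.68, 10.73, 11.05 and 10.39 on LysM-KI arrays. For both, control 4 lay far below every other array, and the other control arrays overlapped the LysM-KI arrays. The difference was 0.89 (SE 0.52) for Ndufa3 and 0.66 (SE 0.43) for Ndufb10. Without control 4 they were 0.39 and 0.24, and without control 4 and LysM-KI 4 together 0.46 and 0.15. Ndufa10, of the membrane arm, was below the control mean on all 5 LysM-KI arrays, at 10.57, 10.51, 10.42, 11.03 and 10.44 on control and 10.19, 10.04, 10.57, 10.52 and 10.17 on LysM-KI arrays (difference -0.29, SE 0.22). Control 4 was again the extreme array, here as the highest, and without it the difference was -0.19.

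Some members of complex I need a remark on what their probe measures. Ndufa4 was grouped here by its name, although its protein is now assigned to complex IV, and its levels were 11.30 to 11.79 on control and 11.52 to 11.92 on LysM-KI arrays. The probe listed under Ndufs5-ps is annotated to a pseudogene of Ndufs5, and signal from the parent gene on it cannot be told apart. Ndufb7, Ndufb11, Ndufc1 and Ndufa11 were near background on some arrays, with detection on 3, 2, 3 and 4 of the 5 control and 5, 4, 5 and 4 of the 5 LysM-KI arrays. Ndufc1 varied the most of them and ran from 4.57 to 7.38 on control arrays. The complex I subunits encoded by mitochondrial DNA that were matched (ND1, ND4, ND4L, ND5 and ND6), listed after the data had been seen, were detected on every array. Their differences ran from -0.18 to 0.01, with 1 of 5 above 0.

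Complex II, succinate dehydrogenase, is shared with the tricarboxylic acid cycle, and all 4 of its genes had a difference above 0, with a median of 0.20. Sdha, the flavoprotein that oxidises succinate, was at 9.01, 8.20, 9.02, 7.86 and 8.00 on control and 8.95, 8.97, 8.57, 9.27 and 8.66 on LysM-KI arrays. The controls fell into 2 high and 3 low arrays, and the LysM-KI arrays were at or below the high ones apart from LysM-KI 4. The difference was 0.47 (SE 0.30, 95% interval -0.19 to 1.13, limma adjusted p 0.944), and 0.23 without control 4 and LysM-KI 4. Sdhb, the iron-sulfur subunit, ran from 6.95 to 9.07 on control and from 6.93 to 9.44 on LysM-KI arrays, and its difference of 0.25 (SE 0.52) turned to -0.10 without LysM-KI 2. The membrane anchors Sdhc and Sdhd, which bind ubiquinone, varied less, between 11.65 and 12.04 and between 11.15 and 11.54 on control arrays. Their differences were 0.15 (SE 0.22) and 0.05 (SE 0.20), that of Sdhc was 0.0392 without LysM-KI 4, and that of Sdhd was -0.0027 without control 5. With 1 array left out, the median of complex II ran from 0.11 to 0.36.

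Complex III, the cytochrome bc1 complex, had a median difference of 0.32, with 7 of 8 genes above 0. Without control 5 the median was 0.18, and without control 4 and LysM-KI 4 it was 0.17. Uqcrq, a small subunit next to cytochrome b, had levels of 8.46, 5.01, 9.62, 9.35 and 7.20 on control and 8.38, 8.36, 9.47, 10.01 and 9.38 on LysM-KI arrays. It was not detected on control 2 and spanned more than 4 log2 units among the controls, with 2 of them at the level of the higher LysM-KI arrays. The difference of 1.19 (SE 0.79, 95% interval -0.55 to 2.93) was 0.46 without control 2 and 0.75 when the background was not corrected.

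Of the core proteins of complex III, Uqcrc1 was at 8.18, 8.39, 8.52, 9.99 and 7.97 on control and 8.13, 9.16, 9.26, 9.19 and 9.00 on LysM-KI arrays. Control 4 lay above every other array and LysM-KI 1 among the other controls, so that 4 LysM-KI arrays stood between control 4 and the rest. The difference was 0.34 (SE 0.40), and it was 0.68 without control 4 and 0.18 without control 5. Without control 4 its unadjusted limma p was under 0.05. In that fit this held for 1 of the 74 subunit genes, beside 940 of 17245 probes, and the smallest adjusted p over the subunit genes was 0.889. Uqcrc2 was at 8.89, 9.88, 9.70, 7.62 and 8.92 on control and 9.68, 8.67, 9.75, 9.51 and 9.95 on LysM-KI arrays, a difference of 0.51 (SE 0.43) that was 0.17 without control 4. Control 4 was thus the highest control for one core protein and the lowest for the other. Cyc1, the cytochrome that passes electrons to cytochrome c, had a difference of 0.33 (SE 0.36), with controls at 6.90 to 7.86 and LysM-KI arrays at 6.96 to 8.45, and ran from 0.16 without LysM-KI 2 to 0.54 without LysM-KI 5. Uqcrfs1, the Rieske iron-sulfur protein, was at 6.93 to 7.88 and 6.96 to 7.78. The small subunits Uqcrh and Uqcr11 had differences of 0.31 (SE 0.35) and -0.25 (SE 0.27), the latter the only one of complex III below 0. With 1 array left out, Uqcrh fell to 0.18 (without LysM-KI 4) and Uqcr11 came to -0.0828 (without LysM-KI 5).

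Complex IV, cytochrome c oxidase, has several subunits with a widely expressed and a tissue-restricted form. Detection is given here for the forms matched on the array, in the sorted population as a whole. Cox4i1, Cox5a, Cox5b, Cox6a1, Cox6b1, Cox6c, Cox7a2l and Cox7b were detected on all 10 arrays. Of the restricted forms, Cox4i2, of lung, and Cox7a1, of heart and muscle, were detected on 1 LysM-KI array each and on no control array. Cox8b, of heart and muscle, and Cox7b2 and Cox8c, of testis, were not detected on any array. Their log2 levels lay between 4.41 and 5.13, close to the floor of the scale, and these 5 are the subunit genes that were not measured. The testis form Cox6b2 was dim, at 4.94 to 6.62 on control and 5.82 to 6.74 on LysM-KI arrays, and was detected on 4 control and 5 LysM-KI arrays (difference 0.46, SE 0.33, and 0.17 when the background was not corrected).

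Cox6a2 is the heart and skeletal muscle form of subunit VIa and is also known from plasmacytoid dendritic cells. It was the only restricted form detected on all 10 arrays, with log2 levels of 9.34, 7.32, 5.27, 6.82 and 6.44 on control and 8.73, 7.66, 8.58, 8.57 and 8.56 on LysM-KI arrays. Control 1 was the highest of all, the other 4 controls lay below every LysM-KI array, and LysM-KI 1, 3, 4 and 5 lay close together. The difference was 1.38 (SE 0.62, 95% interval 0.02 to 2.74), a 2.61-fold higher mean, with a limma adjusted p of 0.931. It was 0.81 when the background was not corrected, and ran from 0.94 to 1.96 when single arrays were left out, the highest without control 1. Its counterpart Cox6a1 was at 9.71, 9.53, 10.51, 8.88 and 9.12 on control and 8.82, 9.11, 9.66, 9.32 and 9.55 on LysM-KI arrays, with LysM-KI arrays spread through the lower control range. Its difference of -0.26 (SE 0.33) rested on control 3, without which it was -0.0169, and it was -0.43 without control 4 and LysM-KI 4.

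Markers of the cell types that carry Cox6a2 were read beside it. Of 9 striated muscle markers, 6 were not detected on any array, among them Ckm, Acta1 and Mb, and 2 were measured. The mean log2 level over all 9 was 4.76 to 5.27 on control and 4.96 to 5.48 on LysM-KI arrays. The measured ones were Mylpf, at 5.05 to 6.30 on control and 4.76 to 6.51 on LysM-KI arrays, and Tnni2, at 4.75 to 9.23 and 6.45 to 7.81, which was not detected on control 2. All 7 plasmacytoid dendritic cell markers, Cox6a2 among them, were measured, with a mean level of 7.76 to 8.61 on control and 7.94 to 8.39 on LysM-KI arrays. Siglech, a surface receptor of these cells, was at 11.98 to 12.76 on control and 11.91 to 12.41 on LysM-KI arrays. Its 2 kept probes gave differences of -0.10 and 0.30. The homing receptor Ccr9 was at 5.61 to 7.29 and 4.65 to 5.61, a difference of -1.05 (limma adjusted p 0.824). Every LysM-KI array lay below every control array for Ccr9, as for 0.336% of all probes. Irf8, a transcription factor of dendritic and myeloid progenitors, was at 10.01, 8.51, 8.01, 8.93 and 8.13 on control and 9.22, 9.22, 9.51, 9.38 and 9.23 on LysM-KI arrays. Control 1 was the highest and control 3 the lowest array for both Irf8 and Cox6a2. By the brightest probe, only Irf8 and Cox6a2 of the 7 markers had a difference above 0. The other 5 (Siglech, Ccr9, Tcf4, Bst2 and Ly6d) lay below 0 without such an order of the controls. The part of such cells in the level of Cox6a2 was not tested.

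The other measured subunits of complex IV differed less. Cox7a2l, which takes part in building supercomplexes, was at 6.89 to 8.82 on control and 6.45 to 8.24 on LysM-KI arrays, with a difference of -0.42 (SE 0.47) that ran from -0.67 without control 5 to -0.17 without LysM-KI 2. Cox6b1 and Cox5b were at 0.18 (SE 0.23) and 0.17 (SE 0.23), and at 0.11 and 0.0349 without control 5, and the 2 kept probes of Cox5b gave -0.51 and 0.17. Cox7a2, the widely expressed counterpart of Cox7a1, ran from 4.74 to 8.74 on control and from 4.68 to 8.50 on LysM-KI arrays and was not detected on 1 array of each group. The median of the 11 measured genes of complex IV was 0.10, with 9 above 0, and 0.03 without control 5 or without control 4 and LysM-KI 4.

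**Figure D2:**
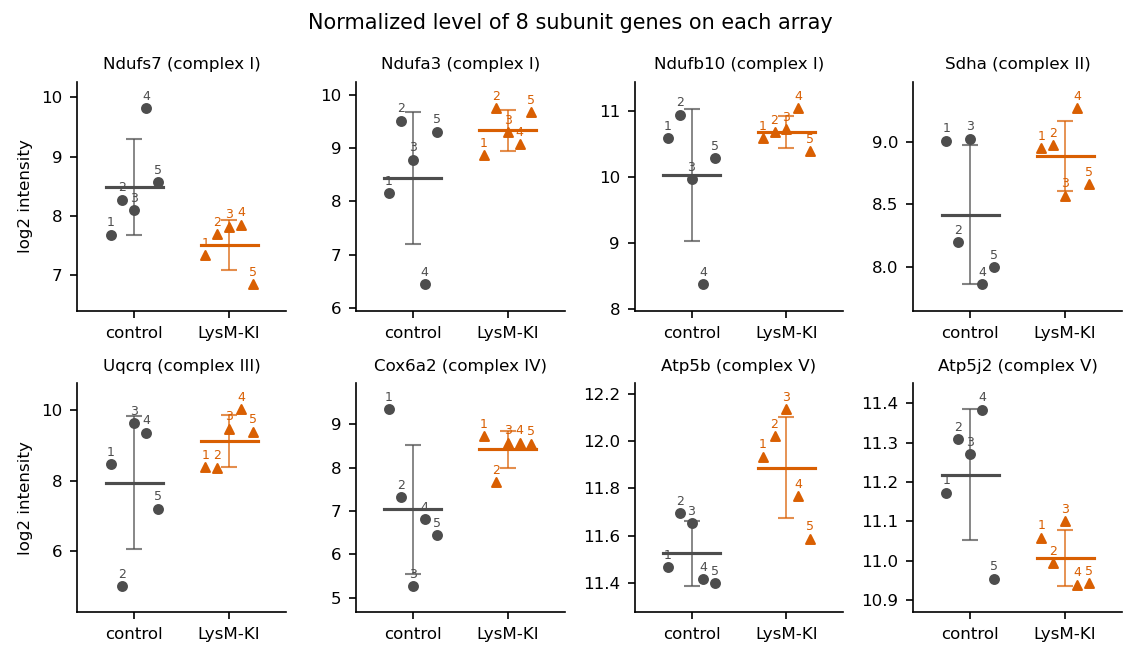
Normalized log2 intensity (y axis) of 8 subunit genes on each array, with the array number beside each point, controls as circles and LysM-KI arrays as triangles. Horizontal lines are group means and bars 1 SD (n = 5), each panel has its own y axis that does not start at 0, and 1 control array stands apart in the panels of Ndufs7, Ndufa3, Ndufb10 and Cox6a2.

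Complex V, the ATP synthase, had 16 measured genes, all detected on every array, with a median difference of 0.13 and 14 above 0. Its medians ran from 0.10 to 0.23 over all settings and with any array left out. Atp5b, the catalytic beta subunit of the head, was at 11.47, 11.70, 11.65, 11.42 and 11.40 on control and 11.93, 12.02, 12.13, 11.77 and 11.59 on LysM-KI arrays. LysM-KI 1 to 4 lay above all 5 controls, and LysM-KI 5 lay among them. The difference was 0.36 (SE 0.21, 95% interval -0.09 to 0.82, limma adjusted p 0.938), 1.29-fold, and it stayed between 0.30 and 0.44 in every setting run. Atp5c1, the gamma subunit that turns within the head, averaged 11.12 ± 0.12 (SD, n = 5) with a highest value of 11.29 on control arrays and was at 11.54, 11.27, 11.68, 11.21 and 11.27 on LysM-KI arrays (difference 0.27, SE 0.20). All 5 LysM-KI arrays were above the control mean, and 2 of them above every control.

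The alpha subunit Atp5a1, which alternates with the beta subunit in the head, was at 10.52, 10.25, 10.00, 9.38 and 9.87 on control and 10.76, 9.89, 10.75, 10.52 and 10.38 on LysM-KI arrays. The brightest probe gave 0.46 (SE 0.28), 0.30 without control 4, and the other kept probe -0.70, so the probes of this gene disagree in sign. Atp5g3, 1 of the genes for the c ring that turns with the proton flow, had levels of 9.90 to 11.20 on control and 10.87 to 11.27 on LysM-KI arrays and a difference of 0.39 (SE 0.27), which was 0.21 without control 4. Its paralog Atp5g2 encodes the same mature protein and was at 8.06 to 9.11 on control and 8.29 to 8.89 on LysM-KI arrays. Atp5pb, of the stalk that holds the head, was at 9.73 to 10.60 on control and 10.39 to 10.86 on LysM-KI arrays (difference 0.31, SE 0.23, and 0.17 without control 4), although 2 further probes of the gene had negative differences, down to -0.35. Atp5j2, of the membrane part, went the other way, at 11.17, 11.31, 11.27, 11.38 and 10.95 on control and 11.06, 10.99, 11.10, 10.94 and 10.94 on LysM-KI arrays. Its LysM-KI arrays were tightly grouped below 4 of the 5 controls, and the difference was -0.21 (SE 0.19).

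Probes of 1 gene could be compared for 22 subunit genes with more than 1 kept probe. In 9 of these, at least 1 probe had the opposite sign to the brightest. They were Ndufa8, Ndufs4 and Ndufv3 of complex I, Cox5b of complex IV, and Atp5a1, Atp5pb, Atp5k, Atp5mpl and Atp5l of complex V. None belonged to complex II or III, where only Sdhb, Sdhc and Uqcr10 could be compared. In complex V, only Atp5o and Atp5j of the genes that could be compared had all kept probes of the same sign.

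Arrays were next compared by the level of the subunit genes as a whole. For each array, the deviation of a gene from its own mean over the 10 arrays was averaged over the 74 genes. This mean deviation was -0.01, 0.06, 0.13, -0.14 and -0.35 log2 units on control arrays 1 to 5 and 0.07, -0.17, 0.28, 0.15 and -0.01 on LysM-KI arrays 1 to 5. Control 5 and LysM-KI 2 were the lowest arrays of their groups and LysM-KI 3 the highest of all, and the groups overlapped. Of the 74 genes, 21 had their lowest level on control 5, 14 on control 4, 13 on LysM-KI 2 and none on LysM-KI 3, where 14 had their highest. The mean over genes was higher in LysM-KI mice by 0.12, against an SD between mice of 0.19 in controls and 0.17 in LysM-KI mice.

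**Figure D3:**
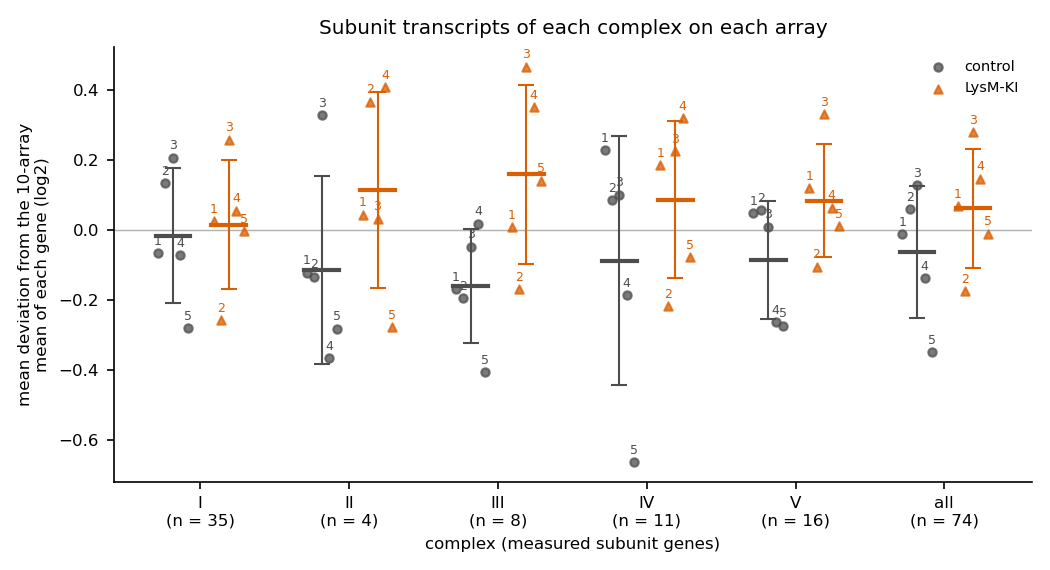
Mean deviation of the measured subunit genes of each complex from their own 10-array mean (y axis, log2 units) on each array, with the array number beside each point. Horizontal lines are group means and bars 1 SD (n = 5 arrays), and control 5 is the lowest array for complexes I, III, IV and V, at -0.66 for complex IV.

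The complexes did not order the arrays alike. On control 5, complexes I, III, IV and V averaged -0.28, -0.41, -0.66 and -0.27, each the lowest of the 10 arrays for that complex. For complex II the lowest array was control 4, at -0.37. LysM-KI 2 was low for complexes I, III, IV and V (-0.26, -0.17, -0.22 and -0.10) and high for complex II (0.37). Without control 5, 43 of the 74 subunit genes (58.1%) lay above 0, beside 52.9% of all probes, and the median difference was 0.04. Without LysM-KI 3 there were 45 (60.8%, beside 52.2%), and the median was 0.04. Leaving out control 5 and LysM-KI 2 together gave 50 above 0 (67.6%, beside 54.1%) and a median of 0.11. Leaving out control 4 and LysM-KI 4 gave 51 (68.9%, beside 52.1%) and 0.10.

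Control mice varied more than LysM-KI mice. The SD over the 5 arrays was larger in controls for 50 of the 74 subunit genes (67.6%), with a median SD of 0.40 in controls and 0.33 in LysM-KI mice. Over all measured genes the share was 70.4% and the medians 0.67 and 0.49, so the wider spread of the controls was not particular to the subunit genes. By median SD, complex III went the other way, at 0.39 in controls and 0.59 in LysM-KI mice, and complex IV was nearly level, at 0.32 and 0.34. By count, the SD was larger in controls for 4 of 8 genes of complex III and for 7 of 11 of complex IV. Uqcrq had the largest control SD (1.88 against 0.73), and Cox7a2 had an SD of 1.56 in both groups.

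**Figure D4:**
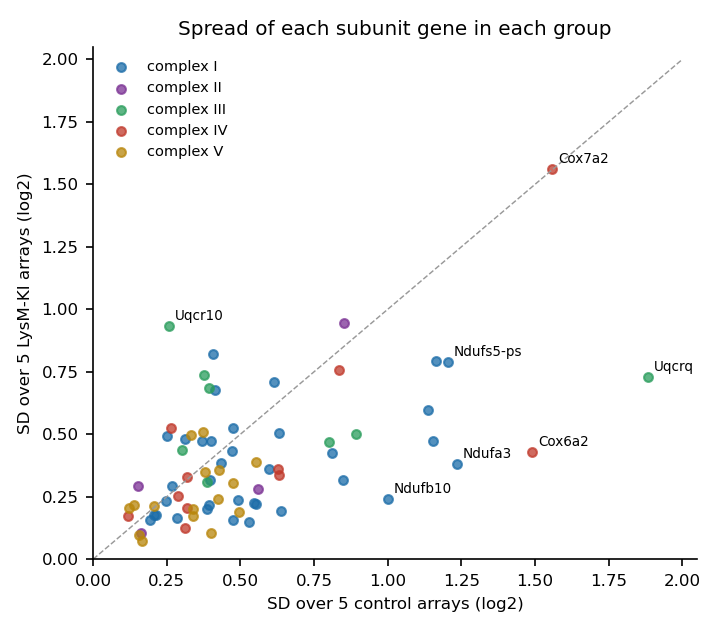
SD of the log2 intensity over 5 control arrays (x axis) and over 5 LysM-KI arrays (y axis) for each measured subunit gene, coloured by complex, with the dashed line marking equal spread. Most points, 50 of 74, lie below the line, and Uqcrq and Cox6a2 lie farthest to its lower right.

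Transcripts that build or serve the complexes were read from fixed lists, in which 0 genes passed limma's adjusted threshold. Mitochondrial ribosomal proteins, which make the mitochondrially encoded subunits, had a median difference of 0.17 with 48 of 73 measured genes above 0. Cytosolic ribosomal proteins had one of 0.04 with 35 of 60 above 0. Their mean deviation was also low on arrays that were low for the subunit genes, with -0.39 on control 4, -0.30 on control 5 and -0.20 on LysM-KI 2 for the mitochondrial and -0.13 on control 5 for the cytosolic proteins. These values come from the same arrays and share their normalization. Cytochrome c and coenzyme Q synthesis genes had a median of -0.01 (5 of 11 above 0), regulators of mitochondrial biogenesis one of 0.19 (11 of 19), and nucleotide carriers, uncoupling and quality control genes one of 0.14 (10 of 13).

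Assembly factors had medians on either side of 0. Those of complex I had a median of -0.07 (6 of 14 above 0), of complex II -0.21 (1 of 4), of complex III 0.31 (3 of 4), of complex IV 0.01 (9 of 17) and of complex V -0.36 (0 of 3). Of these 42 factors, limma gave 2 higher (4.76%) and 1 lower (2.38%) at an unadjusted p under 0.05, close to the 3.40% and 1.94% of all probes. Ndufaf2, of complex I, was at 9.20, 9.85, 9.17, 9.14 and 7.74 on control and 9.92, 9.36, 10.24, 9.98 and 9.69 on LysM-KI arrays, a difference of 0.82 (SE 0.37), and 0.50 without control 5, on which it was lowest. Cox15, which makes heme A for complex IV, was at 6.64, 6.97, 6.90, 7.87 and 6.86 on control and 6.12, 6.06, 6.30, 6.25 and 6.83 on LysM-KI arrays, a difference of -0.74 (SE 0.28). Only LysM-KI 5 reached the control range, and the difference was -0.53 without control 4 and -0.38 with the background not corrected. Cox18, which inserts a core subunit of complex IV into the membrane, had a difference of 0.70 (SE 0.30), 0.46 without control 4, and 0.28 as the mean of its 2 kept probes, which differ in sign.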

How the data were processed

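Messenger RNA of LSK cells from 10 mice was measured on Illumina mouse arrays. Per the labels' protocols, Trizol extraction and an RNeasy clean-up gave the RNA, which was amplified to biotinylated cDNA with the WT-Ovation Pico kit. The authors deposited linear intensity values, not normalized, with a fraction per probe and array that rises with intensity, taken here as 1 minus a detection p. The authors also deposited processed log2 values, which equal quantile-normalized log2 intensities centred on each probe's median within 0.00122, with the steps behind them not given in the sources used here. They served as an alternative.

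Normalization used neqc of limma 3.58.1 under R 4.3.3 ( normexp with negative controls inferred from the detection p, offset 16, quantile, log2). The 17245 of 45281 probes whose detection p was below 0.05 on 5 or more of the 10 arrays were kept and fitted together with lmFit and eBayes (two-sided, Benjamini-Hochberg over all kept probes, threshold 0.05). The number of arrays limits the precision. Gene symbols came from the platform annotation, updated by Entrez number. The fit was tested on simulated data. The labels gave each mouse's group and replicate number. The numbers were not used for pairing, since the deviations of same-numbered arrays correlated between -0.03 and 0.06.

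Named genes were, per complex, up to 6 with the smallest unadjusted p, the catalytic and redox subunits, isoform families, genes whose probes disagree and genes not detected on every array, plus the leading genes of other lists. The members and lists were chosen with earlier results of these data known. Alternatives covered background correction, scaling, filters, probe choice, the spread model, array weights, a replicate block and leaving out arrays.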

Additional observations from a re-analysis of the deposited data

Results flagged for a closer look

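Within groups, levels were checked with Dixon's criterion for 31 genes. These were up to 6 per complex with the smallest unadjusted limma p, plus Ndufaf2, Cox15 and Cox18. The mean deviations of all subunit genes and of each complex were checked as well. With both groups this made 74 sets of 5 levels, of which 5 held an array far from the others. Chance alone gives this for about 5% of sets. On control 4, Ndufa10 (11.03, next 10.57), Uqcrc1 (9.99, next 8.52) and Cox15 (7.87, next 6.97) were far above the other controls. Uqcrc1 on LysM-KI 1 was at 8.13, with the next lowest LysM-KI array at 9.00. Cox6a2 on LysM-KI 2 was at 7.66, with the next lowest at 8.56. Control 4 also had the fewest detected probes and was 1 of the arrays high in Xist, and the part of either in these levels was not tested.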

How the results depend on the processing

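No probe and no subunit gene passed the adjusted threshold under any of the settings run, leave-one-out fits included. The median difference over the subunit genes ran from 0.05 to 0.17 across settings and from 0.04 to 0.19 with 1 array left out, and the number above 0 from 45 to 59 and from 43 to 57. Median scaling moved the median of all probes to 0.13, against which its subunit median of 0.15 should be read. With the replicate block the median of 0.09 and the 57 genes above 0 were fixed in advance, since a balanced block leaves every difference as it was. Only the p could move, and limma's smallest adjusted p over all probes was then 0.800. Signs were followed for 31 genes, up to 6 per complex with the smallest unadjusted limma p, plus Ndufaf2, Cox15 and Cox18. Other named genes, some with differences near 0, were left out of this count. Of 401 pairs of such a gene and a setting, 5 turned sign, and of 310 pairs of such a gene and an array left out, 2 did. The 401 include settings that change only the filter, the spread model or the replicate block. Such settings leave each difference as it was, so their pairs could not turn sign. The authors' processed values also nearly repeat the setting without background correction. With the mean of all kept probes, Cox5b was at -0.17, Atp5a1 at -0.12 and Atp5pb at -0.0707, since their probes disagree. Sdhb was at -0.0574 without control 4 and LysM-KI 4 and at -0.0735 without control 5 and LysM-KI 2, and with 1 array left out ran from -0.10 to 0.56. Sdhd ran from -0.0027 to 0.094 with 1 array left out. The cause was not tested. The number of subunit genes at an unadjusted limma p under 0.05 was 2 of 74, beside 922 of 17245 probes. It was 1 to 4 under other settings, with the 4 found without a filter, where 1848 of 45281 probes were under 0.05. With 1 array left out it was 0 to 2, beside 743 to 1224 of 17245 probes. The choices to leave out 2 arrays together were made after the data had been seen. Dim probes, near background, limit what can be said of the restricted isoforms.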
